A study of Homo sapiens with 9 samples.

Results

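The adhesion G protein-coupled receptors were examined in the RNA-seq of MDA-MB-231 cells and their metastatic sub-populations. Members were chosen by name, as the genes of the deposited count table whose HGNC symbol is ADGR, a family letter (A to G, L or V) and a number. This gave 29 of the 58884 genes in the table. Of these, 25 had at least 1 count in some library, and 4 (ADGRE3, ADGRF2, ADGRG7 and ADGRL4) had none. A filter on low counts, described where it is first used, left 13 members for testing.

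MDA-MB-231 is an established human line of triple-negative breast cancer. The 3 populations compared were the parental line (Par), the lung metastatic sub-population LM2 and the brain metastatic sub-population BrM2, each in 3 replicates and 9 libraries in all. All cells grew for 3 days as monolayers in DMEM with 10% FBS and antibiotics, and none of the labels gives a treatment. Replicates of a line were taken at different passages, and each metastatic line is a single population derived from MDA-MB-231, so that what is measured below is a difference between these populations in culture. The libraries held 14371858 to 24511786 counts on genes, with BrM2 replicate 1 the shallowest.

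Adhesion GPCRs are surface receptors with a long extracellular part, built from adhesion domains, in front of the usual membrane-spanning part. Most are cut near the membrane within a GAIN domain, and the newly exposed end (the tethered agonist, or Stachel sequence) can activate the receptor when the outer fragment is pulled away by a ligand on another cell or in the matrix. Family letters group receptors with like outer parts: L for latrophilins, E for EGF-domain receptors, A to D, F, G and V for the others. The receptors signal through G proteins, and they are known in tumors mainly for adhesion and migration.

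The lines expressed the genes listed for mesenchymal-like breast cancer cells, which were VIM, CD44 and ZEB1 with the keratins KRT8 and KRT18. The keratins also mark luminal epithelium and are no mesenchymal genes. All 5 were above 3 counts in every library, with a summed level of 2146 to 3533 CPM (normalized counts in proportion to the library size) in Par, 2760 to 4337 in LM2 and 2727 to 3997 in BrM2. VIM (vimentin) was at 636 to 882 CPM in Par, 1356 to 1876 in LM2 and 1253 to 1821 in BrM2. Against Par, VIM rose in both LM2 (log2 fold change 1.09 ± 0.23, adjusted p = 0.020 in edgeR) and BrM2 (1.05 ± 0.23, adjusted p = 0.016). The other genes of this list passed in neither comparison. In LM2 and BrM2, CD44 was at 0.23 and 0.30, ZEB1 at 0.32 and -0.29, KRT8 at -0.72 and -0.75, and KRT18 at -0.01 and -0.08. The 5 luminal epithelial markers summed to 7.80 to 23.3 CPM over all libraries, with CDH1 (E-cadherin) at 3 to 37 counts per library and PGR at 0 in Par and LM2. GATA3, a luminal transcription factor, fell in LM2 against Par (-1.57 ± 0.30, adjusted p = 0.012). ESR1, also on the luminal list, went the other way, with 11 counts in all in Par and 29 in LM2. The part of these markers in the results below was not tested. Replicate 1 stood apart from replicates 2 and 3 in every line. In this respect the members moved with the GC content of their transcripts, as given for each of them further on, and the replicate number was used as a block in a second fit. Where that fit changes the call of a member, its value is printed as the blocked adjusted p. Of the markers above, the block added calls against Par for KRT8, lower in LM2 (blocked adjusted p = 0.0049) and BrM2 (0.0047). It also added EPCAM, lower in LM2 (0.022), and GATA3, lower in BrM2 (0.0074).

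Sequences before the transcription start are shown for the members that changed most clearly or together, as far as an entry was at hand. They are the 250 bases before the start in RefSeq (GRCh38.p14, the build of the counts), read 5′ to 3′ on the gene's strand. Both strands were searched for AP-1 (TGANTCA), RUNX (TGTGGT), ETS (GGAAGT) and TATA box (TATAAA) letters, and any match is in capitals. ADGRF1 and ADGRF5 are shown because they are neighbours on chromosome 6, both on the minus strand, and both fell in LM2 and in BrM2. ADGRE1 is shown because it rose in BrM2, and ADGRG1 because it rose in LM2. Of the 3 starts of ADGRG1 the last is shown, which was chosen after the search because it alone held a match. Both of these are on the plus strand.
ADGRF1, chr6:47042333-47042582: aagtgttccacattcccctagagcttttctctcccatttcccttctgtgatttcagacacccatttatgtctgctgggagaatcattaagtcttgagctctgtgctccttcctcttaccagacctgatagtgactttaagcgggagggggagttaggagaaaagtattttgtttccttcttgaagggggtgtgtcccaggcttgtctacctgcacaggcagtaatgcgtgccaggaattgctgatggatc
ADGRF5, chr6:46954940-46955189: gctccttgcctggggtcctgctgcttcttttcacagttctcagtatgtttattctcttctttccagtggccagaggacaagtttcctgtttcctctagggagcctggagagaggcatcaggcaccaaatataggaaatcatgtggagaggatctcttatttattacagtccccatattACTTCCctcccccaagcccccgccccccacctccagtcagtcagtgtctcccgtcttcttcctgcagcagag
ADGRE1, chr19:6887329-6887578: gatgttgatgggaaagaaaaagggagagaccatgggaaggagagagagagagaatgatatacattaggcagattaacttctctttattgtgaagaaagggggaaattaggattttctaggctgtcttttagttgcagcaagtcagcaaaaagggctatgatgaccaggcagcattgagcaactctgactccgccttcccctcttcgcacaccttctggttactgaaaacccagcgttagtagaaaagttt
ADGRG1, chr16:57628380-57628629: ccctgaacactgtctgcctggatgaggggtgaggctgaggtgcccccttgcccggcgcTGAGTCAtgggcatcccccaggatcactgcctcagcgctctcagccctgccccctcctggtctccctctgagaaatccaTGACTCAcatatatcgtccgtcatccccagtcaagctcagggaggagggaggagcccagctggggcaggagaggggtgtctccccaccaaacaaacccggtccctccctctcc

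The window of ADGRF5 held 1 ETS match (ACTTCC, the letters of the other strand), and the window of its second start held 1 as well. The windows of ADGRF1 and ADGRE1 held no match to any of these letters. The window of the last ADGRG1 start held 2 AP-1 matches, and those of its other 2 starts held no match. Among 35116 RefSeq promoter windows of the same length, 6.57% held AP-1 letters, 10.98% RUNX, 19.5% ETS and 10.7% TATA letters. A match describes only the letters in the window. An entry was found for 19 of the 29 members, and ADGRL1 had none.

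Levels are first given per kilobase of exon, the only scale on which genes are compared with each other here. ADGRE5 (CD97), a receptor of leukocytes and many tumors that binds CD55, THY1 and integrins, had the highest level in all 3 lines. Its mean was 53.9 CPM per kb in Par, 41.2 in LM2 and 51.9 in BrM2, which was 39.7%, 44.5% and 49.1% of the summed level of the 13 tested members. ADGRF5 (GPR116), known for the control of surfactant in the lung, was next in Par at 45.5 CPM per kb, and its libraries overlapped those of ADGRE5 there. In LM2 it held rank 3 at 12.6 CPM per kb, behind ADGRG1 at 23.4, and the libraries of these neighbours in the order did not overlap. In BrM2 it was again at rank 2 with 19.4 CPM per kb, and ADGRG1 was at rank 3 with 8.75.

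ADGRG1 (GPR56), a receptor for collagen III and transglutaminase 2 that is known from cortical development and from melanoma, made up 8.18% of the summed level in Par, 25.3% in LM2 and 8.28% in BrM2. ADGRA3 (GPR125) held rank 4 in every line, at 8.23, 7.90 and 8.12 CPM per kb. It overlapped ADGRG6 in Par and BrM2, and in BrM2 also ADGRG1. At the other end, ADGRE1 was last of the 13 in Par and LM2 and rank 7 in BrM2, where it overlapped ADGRL2, while ADGRF1 went from rank 6 in Par and 7 in LM2 to last in BrM2. Thus by mean level the leading receptors were the same 4 genes in each line, and the largest changes of rank were those of ADGRE1 and ADGRF1. In BrM2 the libraries do not settle this order. ADGRG6, at rank 5, ranged there from 2.84 to 10.1 CPM per kb, beside 7.10 to 11.2 for ADGRG1 and 6.60 to 9.32 for ADGRA3. Its lowest library was replicate 1, and in replicates 2 and 3 it was above both.

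**Figure D1:**
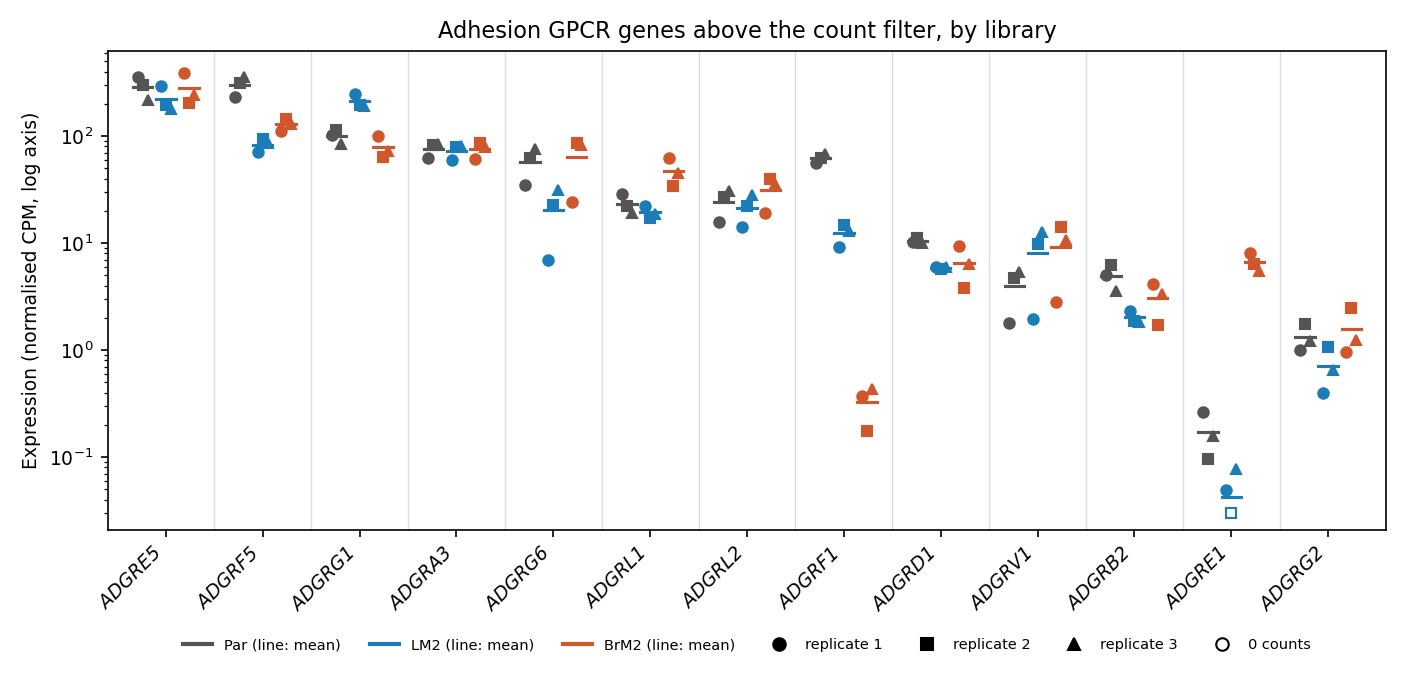
Expression of the 13 tested adhesion GPCR genes in each library, in normalised CPM on a log axis (not divided by length), ordered by their mean over the lines. Colors mark the lines, symbols the replicate number, short lines the mean of 3 replicates, and the open symbol a library with 0 counts. ADGRF1 lies at 56.4 to 67.5 CPM in Par and at 0.177 to 0.431 in BrM2, and ADGRE1 at 5.46 to 8.12 in BrM2 and no higher than 0.263 elsewhere.

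Testing was restricted to genes with a normalized count above 47.15 in at least 1 library, a threshold found as HTSFilter does by comparing replicates. This kept 13055 genes, 13 of them members. ADGRG2, at 53.1, was the member just above the threshold and ADGRA2, at 25.5, the one just below. ADGRE1 and ADGRG2 passed only through BrM2 libraries, and ADGRF1 only through Par and LM2 libraries, so that the counts of tested members below are descriptions. Between LM2 and Par, 3 of 13 members passed an adjusted p of 0.05 in edgeR's quasi-likelihood test beside 8.69% of all tested genes. 1 was higher, beside 4.17% of all genes, and 2 were lower, beside 4.52%. With the replicate block 9 passed, beside 34.5% of all genes, 2 higher (all genes 15.5%) and 7 lower (all genes 19.1%). Between BrM2 and Par, 4 passed, beside 13.3% of all genes, 2 higher (all genes 6.25%) and 2 lower (all genes 7.02%). With the block 6 passed, beside 42.7%, 3 higher (all genes 19.5%) and 3 lower (all genes 23.2%). Between BrM2 and LM2, 4 passed, beside 8.10% of all genes, 2 higher (all genes 4.11%) and 2 lower (all genes 3.99%). With the block 8 passed, beside 37.5%, 6 higher (all genes 17.8%) and 2 lower (all genes 19.7%).

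The median log2 fold change of the 13 members was -0.83 for LM2 against Par, where that of all tested genes was 0.01. The corresponding medians were -0.02 and -0.02 for BrM2 against Par, and 0.56 and -0.03 for BrM2 against LM2. Libraries of the lines did not overlap for 7, 5 and 5 members in these comparisons, beside 25.2%, 31.3% and 23.1% of all tested genes. Both comparisons with Par use the same Par libraries. Without replicate 1 of every line, 7 members passed in each comparison. Without replicate 2 of every line, or without replicate 3, none passed between LM2 and Par in edgeR (3 and 4 at an unadjusted p under 0.05), and the 2 that passed in each comparison with BrM2 were ADGRE1 and ADGRF1. DESeq2, with all libraries, called 4, 4 and 6 members, beside 1893, 2520 and 1824 of the 13055 tested genes. For the fits without a replicate number, calls over all genes were not counted.

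**Figure D2:**
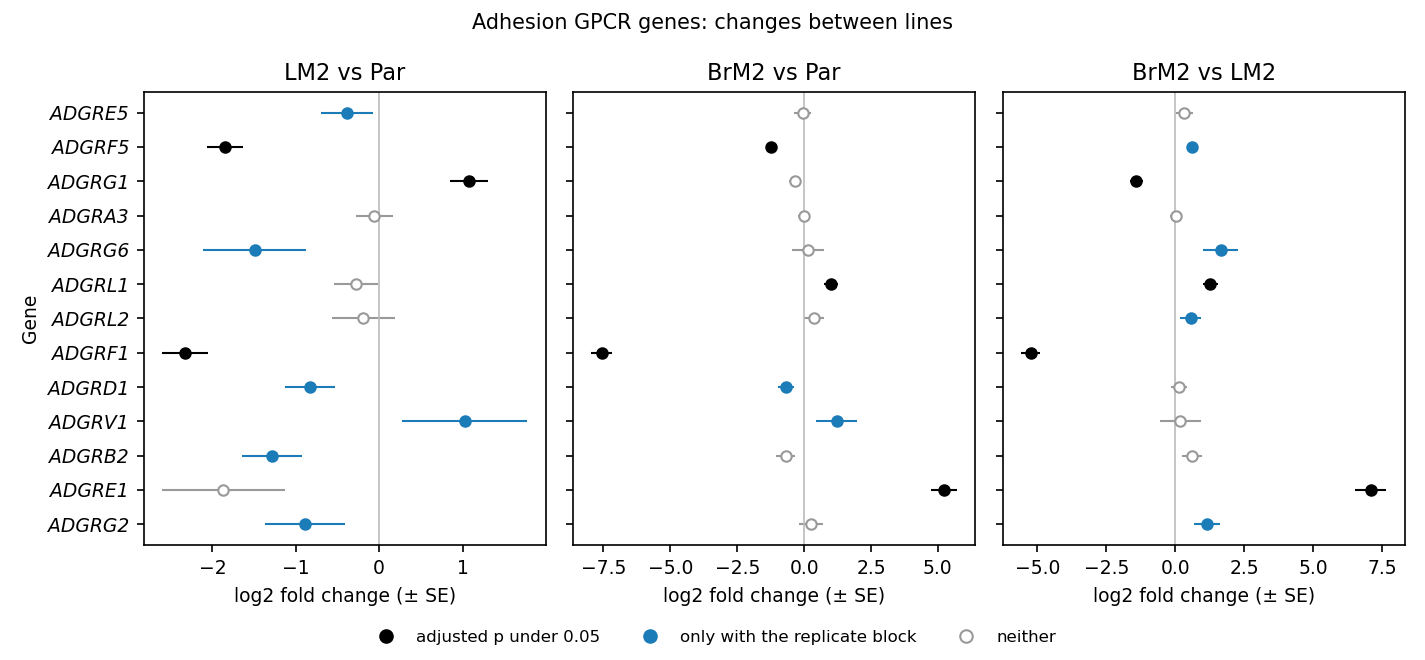
Log2 fold change ± SE of the 13 tested members in the 3 comparisons, from edgeR on all 9 libraries, with a scale of its own for each panel. Black points passed an adjusted p of 0.05, blue points passed only with the replicate block, and open points in neither. ADGRF1 lies left of 0 in all panels, ADGRF5 is black on the left in both comparisons with Par, and ADGRE1 is far to the right in both comparisons with BrM2.

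ADGRF1 and ADGRF5 fell in both sub-populations. ADGRF1 (GPR110), a receptor that is activated by the lipid synaptamide and is expressed in several carcinomas, is at chr6:46997708-47042332. It had 1074, 1276 and 1719 counts in Par, 186, 360 and 341 in LM2, and 5, 4 and 9 in BrM2. In normalised units these were 56.4, 61.8 and 67.5 CPM in Par, 9.24, 14.7 and 13.1 in LM2, and 0.369, 0.177 and 0.431 in BrM2. Thus the 3 lines formed 3 separate ranges, with Par highest and BrM2 lowest. In bulk samples like these, fewer cells with a transcript and less of it per cell cannot be told apart. Log2 fold changes were -2.33 ± 0.28 (SE, adjusted p = 0.0012) for LM2 against Par and -7.57 ± 0.38 (adjusted p = 2.5e-05) for BrM2 against Par. Set against LM2, BrM2 was at -5.25 ± 0.35 (adjusted p = 8.1e-05). All 3 calls were kept when any single library was left out.

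ADGRF5 is at chr6:46852522-46954939, and 42.8 kb separate it from ADGRF1. It had 232, 312 and 356 CPM in Par, 70.3, 93.6 and 85.4 in LM2, and 112, 144 and 128 in BrM2. The Par libraries were all higher than those of either sub-population, and the LM2 libraries were all lower than those of BrM2. In the test this was a log2 fold change of -1.85 ± 0.22 (adjusted p = 0.0011) for LM2 and -1.23 ± 0.21 (adjusted p = 0.0057) for BrM2 against Par, and both calls were kept without any single library. Between BrM2 and LM2 it was 0.62 ± 0.21 (adjusted p = 0.13, blocked adjusted p = 0.0021, and 0.043 in DESeq2). Of the stretches of 50 bases in ADGRF5 transcripts, 6.63% also occur in another gene, the pseudogene ADGRF5P2 among them.

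The nearest tested genes outside this pair were looked up as well. SLC25A27, on the side of ADGRF5, passed in none of the 3 comparisons without the block. With it, the blocked adjusted p was 5.6e-04 for BrM2 against Par and 0.0035 for BrM2 against LM2. On the side of ADGRF1, TNFRSF21, a death receptor of the TNF family, fell in BrM2 against Par by 0.56 on the log2 scale (adjusted p = 0.033), and in BrM2 against LM2 by 0.67 (adjusted p = 0.023), and its log2 fold change was 0.11 in LM2 (adjusted p = 0.79). ADGRF4, also a member and on the same chromosome, stayed below the filter, with 0 to 15 counts per library.

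ADGRE1 was read almost only in BrM2. It is at chr19:6887579-6940450 and is the human counterpart of the mouse macrophage antigen F4/80, and in humans it is best known from eosinophils. Its counts were 5, 2 and 4 in Par, 1, 0 and 2 in LM2, and 110, 143 and 114 in BrM2, or 0.263, 0.0968 and 0.157 CPM, 0.0497, 0 and 0.0766 CPM, and 8.12, 6.31 and 5.46 CPM. No library of Par or LM2 came near the BrM2 range. Between BrM2 and Par the log2 fold change was 5.24 ± 0.48 (adjusted p = 2.3e-04). Against LM2, whose libraries had 3 counts in all, the ratio was 152 with a 95% counting interval of 51.5 to 739 (exact, counting error only; adjusted p = 1.6e-04). Between LM2 and Par the ratio rests on 3 against 11 counts and was 3.98 in favor of Par, with an interval of 1.05 to 22.2 (adjusted p of the fit 0.19, blocked adjusted p 0.088). The BrM2 calls were kept without any single library.

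Leukocyte markers were low in all 3 lines, and in BrM2 most of their sum was CD14. The 4 markers (PTPRC, CD68, CD14 and CD3E) summed to 1.19 to 3.25 CPM in BrM2, 1.57 to 3.08 in LM2 and 2.48 to 4.78 in Par. CD3E was at 0 in every BrM2 library, PTPRC had 0 to 6 counts there and CD68 0 to 1. CD14 passed only with the block, where it was lower in LM2 (blocked adjusted p = 0.047) and BrM2 (0.023) than in Par. The nearest tested gene on one side of ADGRE1 is VAV1, a guanine nucleotide exchange factor of blood cells, which rose in LM2 against Par by 2.35 ± 0.45 (log2 fold change, adjusted p = 0.013) and was lower in BrM2 than in LM2, with a log2 fold change of -4.00 ± 0.52 (adjusted p = 0.0019). Against Par, VAV1 in BrM2 was at -1.64 ± 0.53 (adjusted p = 0.080, blocked adjusted p = 0.026). ZNF557, on the other side, passed only with the block, for LM2 against Par (blocked adjusted p = 0.013) and BrM2 against LM2 (0.031).

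ADGRG1 was higher in LM2 than in both other lines. It is at chr16:57619738-57665567 and lies between the members ADGRG5 and ADGRG3, which were at 1 to 15 and 0 to 3 counts per library. Its levels were 102, 114 and 84.1 CPM in Par, 248, 194 and 191 in LM2, and 101, 64.0 and 71.8 in BrM2. The LM2 libraries were above all others, while Par and BrM2 overlapped. In log2 terms the difference was 1.07 ± 0.23 (adjusted p = 0.020) for LM2 against Par and -1.42 ± 0.23 (adjusted p = 0.0059) for BrM2 against LM2. For BrM2 against Par it was -0.35 ± 0.23 (adjusted p = 0.42, blocked adjusted p = 0.068). That difference passed, with BrM2 lower, when replicate 1 of every line was left out. The rise in LM2 against Par lost its call without Par replicate 1 (adjusted p = 0.069), Par replicate 2 (0.055), Par replicate 3 (0.089) or LM2 replicate 2 (0.057), and the difference between BrM2 and LM2 was kept without any single library. CCDC102A, the nearest tested gene on one side of the group of 3, passed in no comparison with or without the block.

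The latrophilins were represented by ADGRL1 and ADGRL2. These are receptors for teneurins, FLRT proteins and, for ADGRL1, neurexins, and are named for the spider toxin that binds ADGRL1. ADGRL1, at chr19:14147743-14206169, had 28.8, 22.4 and 18.9 CPM in Par, 22.1, 17.1 and 18.7 in LM2, and 61.6, 33.9 and 44.7 in BrM2. The BrM2 libraries were above all others, and Par and LM2 overlapped. Its log2 fold change was 0.999 ± 0.27 (adjusted p = 0.040, blocked adjusted p = 3.95e-04) for BrM2 against Par and 1.28 ± 0.27 (adjusted p = 0.021) for BrM2 against LM2, against -0.28 ± 0.27 (adjusted p = 0.68) for LM2 against Par.

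When single libraries were omitted, the ADGRL1 call was kept in 3 of 9 fits for BrM2 against Par and in 6 of 9 for BrM2 against LM2. That of ADGRG1 for LM2 against Par was kept in 5 of 9, and the other member calls in all 9. For BrM2 against Par the call was lost without Par replicate 2 (adjusted p = 0.14) or 3 (0.15), LM2 replicate 2 (0.065) or 3 (0.064), or BrM2 replicate 1 (0.095) or 3 (0.11). It was also lost with no filter on low counts (0.057) and in a fit of only the 2 lines compared (0.071). For BrM2 against LM2 it was lost without LM2 replicate 2 (0.099) or 3 (0.082), without BrM2 replicate 3 (0.069), and with only the 2 lines (0.058). The antisense gene ADGRL1-AS1 covers 5.57% of the exonic bases of ADGRL1, and since the strand that was counted is not stated, reads there cannot be told apart. The nearest tested genes are ASF1B, which passed only with the block (blocked adjusted p = 0.0027 for LM2 against Par and 0.019 for BrM2 against LM2), and the member ADGRE5, at a distance of 175 kb.

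ADGRL2 had 15.8, 26.8 and 30.7 CPM in Par, 14.2, 22.0 and 28.1 in LM2, and 19.1, 39.7 and 35.8 in BrM2. Ranges of the 3 lines overlapped, and replicate 1 was the lowest library of each line. No comparison passed without the block. With the block, ADGRL2 was higher in BrM2 than in LM2 (log2 fold change 0.56, adjusted p = 0.47, blocked adjusted p = 0.0094), and for BrM2 against Par the log2 fold change was 0.37 (blocked adjusted p = 0.051). ADGRL3, which pairs with FLRT3 and teneurins in neurons, stayed below the filter, with 1, 1 and 0 counts in Par, none in LM2, and 1, 19 and 24 in BrM2. Its 44 counts in BrM2 made a ratio of 25.1 to Par (exact 95% counting interval 6.55 to 214) and at least an 18.2-fold higher level than in LM2, from a floor of 3 counts over the line. BrM2 replicates 2 and 3 held nearly all of these counts, and BrM2 replicate 1 had no more than a Par library. With no filter on low counts, ADGRL3 passed in edgeR with adjusted p = 0.0027 against Par and 3.7e-04 against LM2.

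ADGRG6 and ADGRG2 passed the low-count filter but no comparison in edgeR without the block. ADGRG6 (GPR126), which is needed for myelination by Schwann cells and binds collagen IV, laminin and the prion protein, had 34.5, 62.3 and 76.2 CPM in Par, 6.96, 22.8 and 31.6 in LM2, and 24.1, 85.5 and 82.2 in BrM2. The LM2 libraries were all below those of Par, and within each replicate number LM2 was the lowest line. The log2 fold change of LM2 against Par was -1.49 ± 0.62 (adjusted p = 0.21, blocked adjusted p = 1.2e-04) and that of BrM2 against LM2 was 1.64 ± 0.62 (adjusted p = 0.17, blocked adjusted p = 1.2e-04). With no filter on low counts ADGRG6 passed in both without the block (adjusted p = 0.030 and 0.014), and in DESeq2 in the second (0.049). ADGRG2 (GPR64), an epididymal receptor, had 0.998, 1.74 and 1.22 CPM in Par, 0.397, 1.06 and 0.651 in LM2, and 0.960, 2.47 and 1.25 in BrM2, and the lines overlapped. Its log2 fold change was -0.89 in LM2 against Par (adjusted p = 0.36, blocked adjusted p = 0.030) and 1.15 in BrM2 against LM2 (adjusted p = 0.21, blocked adjusted p = 0.011).

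ADGRE5, the most strongly expressed member, had 357, 298 and 215 CPM in Par, 292, 194 and 179 in LM2, and 390, 204 and 243 in BrM2. The 3 lines overlapped, and replicate 1 was the highest library of each line. No comparison passed without the block, and with it LM2 was lower than Par (log2 fold change -0.39, adjusted p = 0.59, blocked adjusted p = 0.049). Of the stretches of 50 bases in its transcripts, 15.1% also occur in another gene, mainly ADGRE2, which had 0 to 7 counts per library.

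ADGRA3, a receptor of planar cell polarity, had 62.5, 81.6 and 84.6 CPM in Par, 59.1, 79.3 and 81.2 in LM2, and 61.1, 86.3 and 78.1 in BrM2. Lines could not be told apart in these values, and the log2 fold changes were -0.06 ± 0.22, -0.02 ± 0.22 and 0.04 (adjusted p = 0.94, 0.98 and 0.95) in the order of the comparisons above. The sign of the BrM2 difference from Par turned with the scaling, as ADGRA3 was at 0.01 with RLE factors.

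Another 3 members passed only with the block. ADGRD1 (GPR133), a receptor that couples to Gs and is known from glioblastoma, had 10.2, 11.03 and 9.94 CPM in Par, 5.91, 5.67 and 5.98 in LM2, and 9.30, 3.80 and 6.37 in BrM2. Both sub-populations lay below Par in every library, LM2 in a narrow range and BrM2 in a wide one. As a log2 fold change this was -0.83 ± 0.30 for LM2 (adjusted p = 0.15, blocked adjusted p = 0.020) and -0.69 ± 0.30 for BrM2 against Par (adjusted p = 0.20, blocked adjusted p = 0.029). Without BrM2 replicate 1 the latter passed, with adjusted p = 0.042.

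ADGRB2 (BAI2), of the family named for brain-specific inhibition of angiogenesis, had 4.99, 6.24 and 3.54 CPM in Par, 2.34, 1.88 and 1.84 in LM2, and 4.13, 1.72 and 3.36 in BrM2. The LM2 libraries were all below Par, and BrM2 overlapped both. The log2 fold change of LM2 against Par was -1.29 ± 0.36 (adjusted p = 0.063, blocked adjusted p = 0.0081), and it passed without BrM2 replicate 1 (0.048), without BrM2 replicate 2 (0.039) and in DESeq2 (0.014). ADGRV1, the very large Usher syndrome receptor of hair-cell stereocilia, had 1.79, 4.74 and 5.34 CPM in Par, 1.94, 9.71 and 12.6 in LM2, and 2.81, 14.1 and 10.6 in BrM2. Replicate 1 was far below the other replicates in every line, and the lines overlapped. Within each replicate number Par was lowest, and the log2 fold change was 1.03 ± 0.75 for LM2 (adjusted p = 0.54, blocked adjusted p = 0.013) and 1.21 ± 0.75 for BrM2 (adjusted p = 0.39, blocked adjusted p = 0.0032).

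Replicate 1 moved with sequence composition in the members as follows. Relative to the mean of replicates 2 and 3 in log2 CPM, 6 of 13 tested members were lower in replicate 1 of all 3 lines (ADGRA3, ADGRF5, ADGRG2, ADGRG6, ADGRL2 and ADGRV1) and 5 were higher in all 3 (ADGRB2, ADGRE1, ADGRE5, ADGRG1 and ADGRL1). The mean shift was largest for ADGRV1, at -2.0, and ADGRG6, at -1.58. It ran along with the GC content of the longest transcript, with a Spearman correlation of 0.86 and a Pearson correlation of 0.71 across these 13 genes, which share the same libraries and are not independent replicates. Without replicate 1 of every line and with no block, ADGRG6 (adjusted p = 8.4e-04), ADGRV1 (0.0058), ADGRD1 (0.033) and ADGRB2 passed in addition between LM2 and Par. ADGRV1 (0.0023), ADGRD1 (0.014) and ADGRG1 did so between BrM2 and Par. Between BrM2 and LM2 the additions were ADGRG6 (4.1e-04), ADGRL2 (0.019) and ADGRF5. The part of this shift in the calls above was not tested, beyond the values with the block and without replicate 1.

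**Figure D3:**
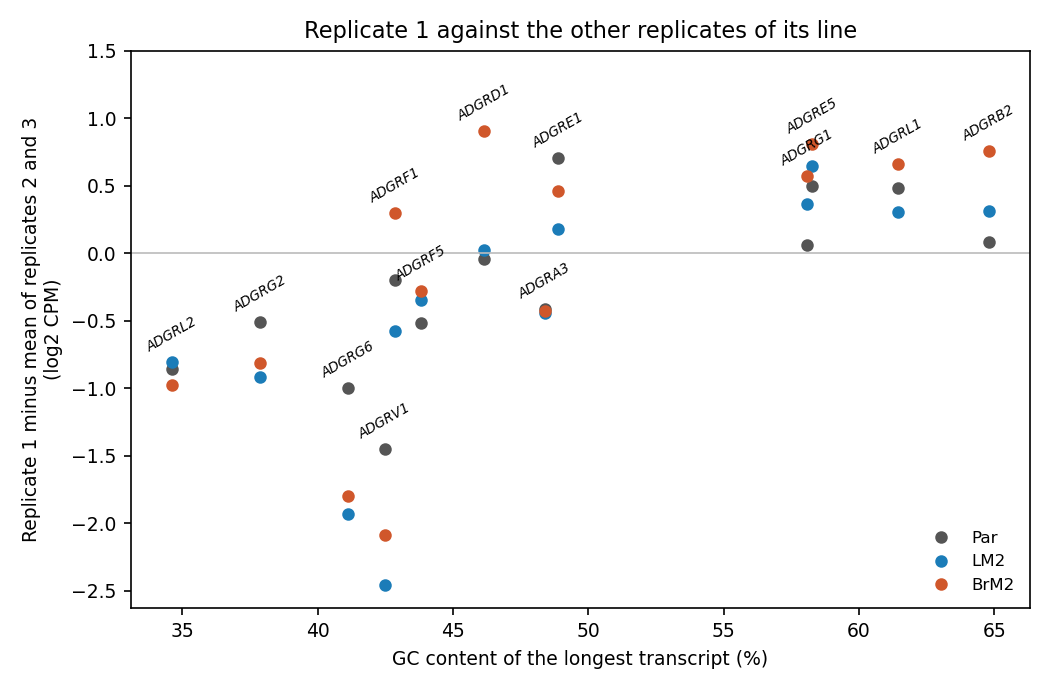
Level of replicate 1 minus the mean of replicates 2 and 3 of the same line (log2 CPM) for the 13 tested members, against the GC content of the longest transcript in percent. Each gene has 3 points, 1 per line, and its name stands above the highest. Genes of low GC content such as ADGRL2, ADGRG6 and ADGRV1 lie below 0 and genes of high GC content such as ADGRB2 and ADGRL1 above.

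Of the 12 members with counts but below the filter, ADGRA2 (GPR124), which works with RECK in WNT7 signaling of brain vessels, had 6, 7 and 6 counts in Par, 23, 21 and 20 in LM2, and 15, 9 and 14 in BrM2. All libraries of LM2 and BrM2 were above Par. The difference between LM2 and Par did not pass with no filter on low counts (adjusted p = 0.070) or with edgeR's own filter (0.054). BRF2, on the opposite strand, covers 23.0% of the exonic bases of ADGRA2. ADGRB3, which binds C1q-like proteins at synapses, had 2, 0 and 2 counts in Par, 1, 3 and 4 in LM2, and 1, 15 and 11 in BrM2 (adjusted p = 0.052 for BrM2 against Par with no filter). ADGRF3 was at 6 to 23 counts, ADGRG5 at 1 to 15 and ADGRE2 at 0 to 7. ADGRG4 had 1 count in all in Par, 1 in LM2 and 10 in BrM2, so that the ratio of BrM2 was 11.4 to Par (exact 95% counting interval 1.62 to 495) and 12.4 to LM2 (1.76 to 538), and it did not pass with no filter (adjusted p = 0.21 and 0.23). ADGRG3, ADGRB1, ADGRA1 and ADGRD2 never exceeded 3 counts in a library. At this depth, 1 count in a library was 0.0383 to 0.0738 CPM.

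Genes that bind or carry the signal of adhesion GPCRs were taken from 4 lists of 64 genes, of which 48 were tested. The lists include CELSR1 to CELSR3, which are adhesion GPCRs themselves. In LM2 against Par, 11 of 48 passed (8 higher, 3 lower), in BrM2 against Par 15 (11 higher, 4 lower), and in BrM2 against LM2 9 (6 higher, 3 lower). As shares these were 22.9%, 31.3% and 18.8%, beside 8.69%, 13.3% and 8.10% of all tested genes. By direction, 4.17% of all tested genes were higher and 4.52% lower in the first comparison. These shares were 6.25% and 7.02% in the second, and 4.11% and 3.99% in the third. With the block the counts were 20, 29 and 22 of 48, beside 34.5%, 42.7% and 37.5% of all tested genes. DESeq2 called 12, 18 and 11 of 48, beside 1893, 2520 and 1824 of the 13055 tested genes. Without replicate 2 of all lines edgeR called 0, 4 and 0, with 11 at an unadjusted p under 0.05 in the first and 9 in the last. THY1, TENM2, TENM4, NRXN3 and ELMO1 passed the filter only through BrM2 libraries, where they are high, and PDZD7 only through Par libraries, where it is high. TENM1 and PLXDC2 passed through LM2 and BrM2 and LAMA2 through Par and LM2, so that the counts over these lists are descriptions. The median log2 fold change of the 48 genes was 0.04 in each comparison. Among the genes named below, the block added calls for BrM2 against LM2 in TENM1 (blocked adjusted p = 0.016) and PTK7 (0.0020), for LM2 against Par in DLG4 (0.0074), and for BrM2 against Par in WHRN (0.016) and PDZD7 (0.022). Other calls added by the block are printed with the genes.

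Teneurins, the large ligands of the latrophilins, were higher in both sub-populations than in Par for all 4 genes, of which TENM3 alone passed the low-count filter in every line. TENM1 had 2, 5 and 7 counts in Par, 111, 399 and 413 in LM2, and 109, 510 and 469 in BrM2. Both sub-populations were far above Par, with a log2 fold change of 5.85 ± 0.67 (adjusted p = 0.0010) in LM2 and 6.35 ± 0.68 (adjusted p = 4.8e-04) in BrM2, and overlapped each other. TENM2 had 0, 2 and 1 counts in Par, 6, 18 and 31 in LM2, and 150, 268 and 290 in BrM2. The ratio to Par was 16.9 in LM2 (exact 95% counting interval 5.48 to 84.4, adjusted p = 0.011) and 269 in BrM2 (91.8 to 1310, adjusted p = 1.8e-04), and BrM2 was above LM2 by a log2 fold change of 4.02 ± 0.49 (adjusted p = 0.0013). The call in LM2 was lost without Par replicate 3 (adjusted p = 0.057).

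TENM4 had no count in Par, 6, 9 and 4 counts in LM2, and 73, 83 and 117 in BrM2. It was thus at least 5.83-fold higher in LM2 (adjusted p = 0.014) and at least 104-fold higher in BrM2 (adjusted p = 2.9e-04), from a floor of 3 counts over the Par libraries, and BrM2 was above LM2 by 4.14 ± 0.41 on the log2 scale (adjusted p = 0.0015). TENM3 had 25.1, 40.0 and 44.8 CPM in Par, 63.2, 81.8 and 94.8 in LM2, and 112, 152 and 166 in BrM2. Here the lines formed 3 separate ranges, with log2 fold changes of 1.13 ± 0.27 (adjusted p = 0.036) in LM2 and 1.97 ± 0.28 (adjusted p = 0.0020) in BrM2 against Par, and 0.85 ± 0.27 (adjusted p = 0.11, blocked adjusted p = 2.4e-04) between them. Its call in LM2 was lost without any 1 of Par replicates 1 to 3, LM2 replicates 2 and 3 or BrM2 replicate 3 (adjusted p = 0.057 to 0.13). Among FLRT genes only FLRT2 was tested, and it passed in no comparison without the block, with which LM2 was above Par (log2 fold change 1.07, adjusted p = 0.37, blocked adjusted p = 7.1e-04). The blocked fit also put FLRT2 in BrM2 above Par (0.49, blocked adjusted p = 0.019) and below LM2 (-0.57, blocked adjusted p = 0.039). NRXN3, a neurexin, had 0, 0 and 3 counts in Par, 0, 1 and 1 in LM2, and 64, 132 and 124 in BrM2. Its ratio in BrM2 was 122 to Par (exact counting interval 41.3 to 594, adjusted p = 3.1e-04) and 198 to LM2 (54.5 to 1645, adjusted p = 4.2e-04).

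**Figure D4:**
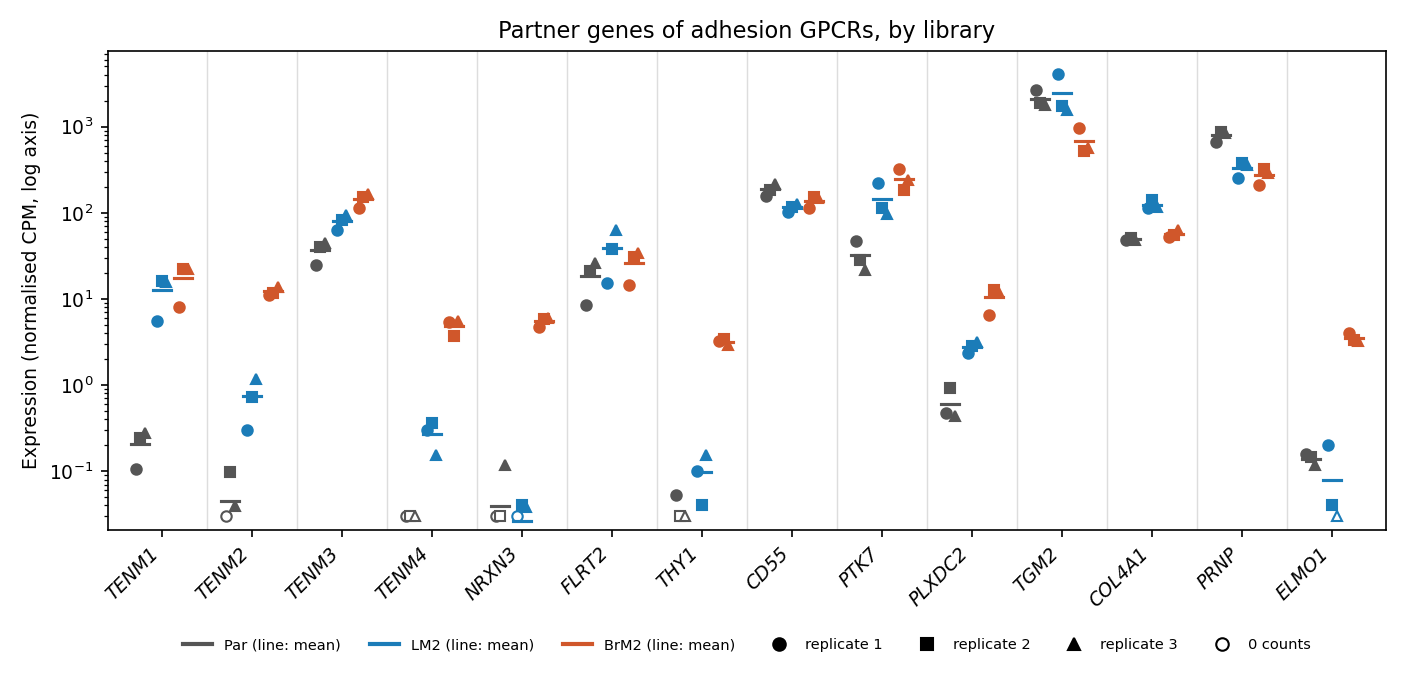
Expression of 14 tested partner genes in each library, in normalised CPM on a log axis, with colors, symbols and mean lines as in the plot of the members and open symbols for libraries with 0 counts. TENM2, TENM4, NRXN3, THY1 and ELMO1 reach 2.92 to 13.9 CPM in BrM2 and lie at or below 1.19 CPM in every Par and LM2 library.

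Other ligands changed in several patterns. THY1, a ligand of ADGRE5, had 1, 0 and 0 counts in Par, 2, 1 and 4 in LM2, and 44, 77 and 61 in BrM2, with a ratio of 208 to Par (exact counting interval 36.8 to 8251, adjusted p = 2.3e-04) and a log2 fold change of 4.93 ± 0.51 (adjusted p = 5.4e-04) against LM2. CD55, the other main ligand of ADGRE5, was at 102 to 218 CPM over all libraries and passed only with the block, where it was lower in LM2 (log2 fold change -0.69, adjusted p = 0.072, blocked adjusted p = 7.8e-04) and BrM2 (-0.43, adjusted p = 0.22, blocked adjusted p = 0.0086) than in Par. PTK7 and PLXDC2, surface proteins that bind ADGRD1, were higher in both sub-populations. PTK7 had 47.0, 28.3 and 21.5 CPM in Par, 224, 113 and 97.1 in LM2, and 325, 183 and 238 in BrM2, with log2 fold changes of 2.17 ± 0.42 (adjusted p = 0.013) and 2.95 ± 0.43 (adjusted p = 0.0022). For LM2 that call was lost without Par replicate 2 (0.069) or 3 (0.053). PLXDC2 had 9, 19 and 11 counts in Par, 48, 69 and 82 in LM2, and 87, 287 and 258 in BrM2, with log2 fold changes of 2.19 ± 0.39 (adjusted p = 0.0088) and 4.11 ± 0.41 (adjusted p = 3.1e-04), and 1.91 ± 0.35 (adjusted p = 0.011) between BrM2 and LM2. The last was lost without LM2 replicate 2 (0.056) or BrM2 replicate 3 (0.053).

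Matrix and surface partners of the ADGRG receptors went different ways. COL4A1, a collagen IV chain, had 48.8, 50.7 and 48.9 CPM in Par, 114, 140 and 118 in LM2, and 52.7, 55.8 and 63.9 in BrM2. Only LM2 was high, with a log2 fold change of 1.33 ± 0.17 (adjusted p = 0.0017) against Par and -1.11 ± 0.17 (adjusted p = 0.0042) for BrM2 against LM2. PRNP, the prion protein, fell in LM2 (-1.27 ± 0.23, adjusted p = 0.010) and BrM2 (-1.54 ± 0.23, adjusted p = 0.0028), from 665 to 865 CPM in Par to 252 to 377 in LM2 and 211 to 318 in BrM2. TGM2, transglutaminase 2, was at 1765 to 2645 CPM in Par, 1571 to 4103 in LM2 and 519 to 968 in BrM2, and was lower in BrM2 than in Par (-1.61 ± 0.41, adjusted p = 0.033) and in LM2 (-1.85 ± 0.42, adjusted p = 0.027). Both TGM2 calls were lost without single libraries. These were Par replicate 1, 2 or 3 or BrM2 replicate 2 or 3 for the first (adjusted p = 0.066 to 0.14), and Par replicate 2 or BrM2 replicate 2 or 3 for the second (0.054 to 0.12).

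The cadherin members of the class, CELSR1 to CELSR3, which act in planar cell polarity and whose symbols do not begin with ADGR, were counted as 1 of the 4 partner lists and not among the 29 members. CELSR1 had 11.6, 13.4 and 9.86 CPM in Par, 30.2, 26.7 and 25.8 in LM2, and 41.5, 19.9 and 30.6 in BrM2. It was higher in LM2 (1.25 ± 0.28, adjusted p = 0.025) and BrM2 (1.40 ± 0.28, adjusted p = 0.011), and all libraries of both were above Par. The LM2 call was lost without Par replicate 1, 2 or 3, LM2 replicate 2 or 3, or BrM2 replicate 3 (adjusted p = 0.052 to 0.10) and that of BrM2 without Par replicate 3 (0.053). CELSR2 had 48.0, 40.0 and 34.4 CPM in Par, 28.8, 19.0 and 19.2 in LM2, and 21.5, 12.8 and 15.0 in BrM2. It fell in BrM2 (-1.32 ± 0.27, adjusted p = 0.013), a call that was lost without Par replicate 1 or BrM2 replicate 2 or 3 (0.050 to 0.071), and its change in LM2 was -0.87 ± 0.27 (adjusted p = 0.092, blocked adjusted p = 5.6e-04). CELSR3 was at 12.8 to 23.9 CPM over all libraries and passed in no comparison without the block. Between BrM2 and LM2, 0 of the 3 passed in edgeR, with 0 at an unadjusted p under 0.05 and 0 called by DESeq2. With the block, CELSR2 (log2 fold change -0.45, blocked adjusted p = 0.025) and CELSR3 (-0.44, blocked adjusted p = 0.0499) were lower in BrM2 than in LM2.

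Of the G proteins, exchange factors and arrestins, 1 gene passed without the block. Among these 15 signal transducers, 0 passed between LM2 and Par in edgeR, with 0 at an unadjusted p under 0.05 and 0 called by DESeq2. In each of the other comparisons 1 passed (6.67%, beside 13.3% and 8.10% of all tested genes), which was GNAO1, a Go-type alpha subunit that is abundant in brain. GNAO1 had 49.9, 34.6 and 27.9 CPM in Par, 46.9, 28.2 and 26.4 in LM2, and 12.5, 7.55 and 7.19 in BrM2. It was lower in BrM2 in every library, with log2 fold changes of -2.05 ± 0.35 (adjusted p = 0.0053) against Par and -1.90 ± 0.35 (adjusted p = 0.011) against LM2, where the second was lost without BrM2 replicate 2 (0.059) or 3 (0.062). With the block 4, 6 and 5 of the 15 passed for LM2 against Par, BrM2 against Par and BrM2 against LM2, beside 34.5%, 42.7% and 37.5% of all tested genes. Among them ARRB2, an arrestin, was higher in BrM2 than in LM2 (log2 fold change 1.04, adjusted p = 0.19, blocked adjusted p = 1.3e-04) and than in Par (0.43, blocked adjusted p = 0.015), and lower in LM2 than in Par (-0.61, blocked adjusted p = 0.0043).

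Scaffold and effector genes held 9 tested genes of 12. ELMO1, which links ADGRB1 to Rac through DOCK1, had 3 counts in each Par library, 4, 1 and 0 in LM2, and 54, 76 and 68 in BrM2. Its log2 fold change in BrM2 was 4.61 ± 0.58 (adjusted p = 0.0011) against Par and 5.50 ± 0.63 (adjusted p = 9.4e-04) against LM2, while ADGRB1 itself never exceeded 3 counts. DLG4, a synaptic PDZ scaffold, rose in BrM2 against Par (1.06 ± 0.26, adjusted p = 0.027), a call lost without any Par library or BrM2 replicate 1 or 3 (0.066 to 0.11). WHRN and PDZD7, partners of ADGRV1 in stereocilia, had log2 fold changes in LM2 against Par that passed (-1.21 ± 0.30, adjusted p = 0.039, and -1.24 ± 0.29, adjusted p = 0.029). WHRN had 5.46, 7.98 and 7.66 CPM in Par and 3.18, 2.86 and 3.06 in LM2, and PDZD7 had 2.21, 2.42 and 1.73 in Par and 0.894, 0.938 and 0.843 in LM2. The WHRN call was lost without any Par or LM2 library or BrM2 replicate 3 (0.050 to 0.15), and the PDZD7 call without any Par or LM2 library (0.050 to 0.12).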

How the data were processed

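RNA was sequenced from Par, LM2 and BrM2 cells, with 3 replicates per line taken at different passages. Per the labels, libraries were made with the TruSeq stranded mRNA kit. The authors aligned the paired reads to hg38 with STAR 2.7.0 and deposited read counts per gene without normalization, and the submitters' processing notes also name CASAVA 1.8.2 and DESeq2. The counted strand is not given in the sources used here. A second deposited table holds the authors' DESeq2 comparisons (log2 fold changes and adjusted p-values) and was not used.

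The table had 58887 rows. 3 identifiers had a second, identical row and were kept once. The low-count filter was written after HTSFilter, with 100 thresholds from 1 to 200 and a loess span of 0.3. Counts were tested in edgeR 4.0.16 (R 4.3.3, limma 3.58.1), with TMM factors, the quasi-likelihood test (2-sided) on all 9 libraries with line as the only term, and Benjamini-Hochberg adjustment over 13055 genes. The SE after each ± was worked back from this test, as the absolute log2 fold change divided by the square root of the F statistic. Tested genes hold 99.64% to 99.78% of the counts of each library. Total counts were 19878879 to 23948742 in Par, 23581487 to 24511786 in LM2 and 14371858 to 22055215 in BrM2. Ratios against a line with 1 to 3 counts in all carry exact 95% intervals that cover counting error only, and a line with none was set to a floor of 3 counts over the line.

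The replicate numbers were taken as pairs and used as a block. Deviations from the line means correlated across genes by 0.23 to 0.90 in all 9 pairs of libraries with the same number. The lowest value was that of Par and BrM2 replicate 2. Pairs of libraries with different numbers were not compared. Because replicate 1 stood apart in every line and deviations within a line cancel out, the other numbers can correlate without being pairs. The values therefore cannot show that the other numbers are pairs, and the blocked fit takes this as given. The common dispersion was 0.11 without and 0.0207 with the block.

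The members, the 4 partner lists and the 6 marker lists were chosen with earlier results of these data known. Named were all members, partner genes past the threshold in any comparison, CELSR1 to CELSR3, and the nearest tested genes beside members that passed. Other genes were named after their values were seen (CD55, FLRT2, ARRB2, FNDC4 and marker genes). FNDC4, on the ligand list, passed only with the block. Its log2 fold change was 2.24 for BrM2 against LM2 (adjusted p = 0.079, blocked adjusted p = 6.4e-05). Against Par it was -1.47 in LM2 (adjusted p = 0.25, blocked adjusted p = 0.0011) and 0.77 in BrM2 (0.53, blocked 0.015). Further partner genes passed only with the block and are not named. A marker gene and a neighbouring gene are not reported here. Summed levels of the marker lists not given in the report were 6.83 to 13.4 CPM for endothelium, 10.3 to 26.5 for neurons and glia, and 2.87 to 5.46 for lung alveolar epithelium over all libraries. Positions came from RefSeq GRCh38.p14, matched by symbol for 28 of 29 members. Exon lengths and GC content came from GENCODE v44 lifted to GRCh37, of which no coordinates are used. The scripts were tested on simulated data. DESeq2 1.42.0 and the other alternatives are described in the closing section. Python 3.11.15, pandas 2.3.3, numpy 2.4.6 and matplotlib 3.10.9 were used besides.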

Additional observations from a re-analysis of the deposited data

Results flagged for a closer look

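For 4 members the change from Par differed between the sub-populations, as the direct test of BrM2 against LM2 passed an adjusted p of 0.05. The log2 fold change of BrM2 against LM2 was 7.10 ± 0.56 for ADGRE1, whose level in LM2 rests on 3 counts in all, and the BrM2 libraries were higher than the LM2 libraries for each replicate number. It was -5.25 ± 0.35 for ADGRF1, which was below Par in both sub-populations and lower in BrM2 in 3 of 3 replicate numbers. It was -1.42 ± 0.23 for ADGRG1, which was above Par in LM2 only. It was 1.28 ± 0.27 for ADGRL1, a difference that lost its call without LM2 replicate 2 (adjusted p = 0.099), LM2 replicate 3 (0.082) or BrM2 replicate 3 (0.069). The share of all tested genes that passed in this comparison was 8.10%. ADGRE1 entered the test only through BrM2 libraries, where it is high, and ADGRF1 only through Par and LM2 libraries, so the 4 are a description.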

How the results depend on the processing

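The counts of members called (3 for LM2 against Par, 4 for BrM2 against Par and 4 for BrM2 against LM2) were within 1.5 times of these values with RLE factors, with edgeR's own filter (3, 4 and 4), with no filter on low counts (4, 4 and 6), with DESeq2 (4, 4 and 6) and with only the 2 lines compared (3, 3 and 3). With the replicate block 9, 6 and 8 members passed, and 20, 29 and 22 partner genes where 11, 15 and 9 passed without it. Beyond the blocked values printed with the results, the block changed no call of a member. Leaving out 1 library, or all libraries of a replicate number, gave 0 to 7, 2 to 7 and 2 to 7 members and 0 to 20, 4 to 25 and 0 to 20 partner genes. Without replicate 1 and with the block, 5, 7 and 8 members and 16, 24 and 18 partner genes passed. The highest counts came without replicate 1 of every line and the lowest without replicate 2 or 3. Where 0 partner genes passed in edgeR, at an unadjusted p under 0.05 there were 11 (LM2 against Par, without replicate 2), 10 (without replicate 3) and 9 (BrM2 against LM2, without replicate 2).

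Of 1824 values of single genes under the alternatives, 1782 kept their direction and 42 turned. None of these 42 was in a comparison in which that gene was called, with or without the alternative. With RLE factors, edgeR's own filter and DESeq2, ADGRA3 turned for BrM2 against Par, to 0.0064, 0.0013 and 0.0067. The others turned with libraries left out, and their log2 fold changes then ran from -0.18 to 0.074 (ADGRA3), -0.43 to 0.035 (ADGRL2), -1.38 to 2.51 (NRXN3), -0.34 to 0.48 (TGM2) and -0.46 to 0.11 (GNAO1) for LM2 against Par. For BrM2 against Par they ran from -0.14 to 0.11 (ADGRA3), -0.37 to 0.18 (ADGRE5), -0.24 to 0.51 (ADGRG2), -0.11 to 0.54 (ADGRG6) and -0.298 to 0.10 (CELSR3), and for BrM2 against LM2 from -0.094 to 0.17 (ADGRA3), -0.20 to 0.41 (ADGRD1), -0.27 to 0.66 (ADGRV1) and -0.13 to 0.37 (CELSR1, -0.050 without replicate 1 and with the block). The cause was not tested. Depth limits the 12 members below the filter.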
